A study of Mus musculus with 4 samples.

Results

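Prolyl hydroxylases and procollagen chaperones were followed in PDL of mice, that is periodontal ligament, whose collagen fibres anchor each tooth in the jaw bone. The set holds 10 genes of 22911 with a named probe: P4ha1, P4ha2, P4ha3, P4hb, P3h1, Crtap, Ppib, Serpinh1, Fkbp10 and Tmem38b. They were chosen by name, and each was read by the probe with the brightest mean signal over the arrays. The tissue came from Mkx-KO mice of 10 weeks, WT mice of 10 weeks, Mkx-KO mice of 4 weeks and WT mice of 4 weeks. Mkx codes for Mohawk, a homeobox factor active in tendons and ligaments, and is knocked out in the Mkx-KO mice. Each of the 4 groups had 1 array, so there was no biological replicate, and the labels do not give the number of mice behind a preparation, their sex, or how the knockout was made.

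A collagen chain enters the endoplasmic reticulum as an unfolded strand, and its folding into a triple helix depends on enzymes and helpers that act there. Prolyl 4-hydroxylase, built from catalytic alpha subunits (encoded by P4ha1, P4ha2 or P4ha3) and the protein disulfide isomerase P4hb, hydroxylates the prolines that make the helix stable at body temperature. The complex of P3h1, Crtap and the cyclophilin Ppib modifies further prolines and isomerises peptide bonds before proline. Serpinh1, also called HSP47, binds the folded helix until export, Fkbp10 is an isomerase that is needed for the hydroxylation of lysines at the chain ends, and Tmem38b forms a cation channel of the endoplasmic reticulum membrane. In human patients, loss of P3H1, CRTAP, PPIB, SERPINH1, FKBP10 or TMEM38B causes forms of brittle bone disease. The periodontal ligament renews its collagen quickly, so its fibroblasts draw on this machinery throughout life.

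All 10 genes were well above background on all 4 arrays by the call of the scanner software, and no spot on the arrays was saturated. The software called 61.8% to 66.6% of the non-control spots of an array well above background. Mkx stood at 23.3% of WT in Mkx-KO at 10 weeks and at 31.8% at 4 weeks. The 6 ligament fibroblast markers (Postn, Scx, Tnmd, Aspn, Tnc and Thbs2) were well above background on every array. Their summed signal was 467 in Mkx-KO and 442 in WT at 10 weeks, and 488 in Mkx-KO and 486 in WT at 4 weeks, in multiples of the 75th percentile of each array. The Mkx-KO array of 4 weeks stood apart in neighbouring tissue: its 7 olfactory and nasal gland markers summed to 1.27, against 565 in WT at 4 weeks, 1471 in Mkx-KO at 10 weeks and 1090 in WT at 10 weeks. The comparison of the genotypes at 10 weeks and that of the ages in WT do not use that array. In a whole tissue, fewer cells of a type and less RNA per cell cannot be told apart.

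The promoters of 8 of the 10 genes were found in the RefSeq promoter table for GRCm38.p6, each as 250 bases before to 50 bases from the annotated start. Shown are those of P3h1, the gene with the widest span between arrays, P4ha2, the gene farthest apart between the genotypes at 4 weeks, and Serpinh1, whose genotype difference was nearly equal at both ages. Capitals mark ACGTG, the core of hypoxia response elements, and CCACG, the short end of the element for the endoplasmic reticulum stress response, both searched on either strand, and their letters can overlap. The sequences lie at chr4:119232665-119232964 (plus strand), chr11:54100674-54100973 (plus strand) and chr7:99353190-99353489 (minus strand).
P3h1: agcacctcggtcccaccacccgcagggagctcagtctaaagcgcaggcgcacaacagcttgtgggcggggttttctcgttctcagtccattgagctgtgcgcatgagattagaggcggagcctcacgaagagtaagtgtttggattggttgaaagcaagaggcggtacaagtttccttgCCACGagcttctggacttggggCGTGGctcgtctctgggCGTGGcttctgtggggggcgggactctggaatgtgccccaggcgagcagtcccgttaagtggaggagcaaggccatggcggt
P4ha2: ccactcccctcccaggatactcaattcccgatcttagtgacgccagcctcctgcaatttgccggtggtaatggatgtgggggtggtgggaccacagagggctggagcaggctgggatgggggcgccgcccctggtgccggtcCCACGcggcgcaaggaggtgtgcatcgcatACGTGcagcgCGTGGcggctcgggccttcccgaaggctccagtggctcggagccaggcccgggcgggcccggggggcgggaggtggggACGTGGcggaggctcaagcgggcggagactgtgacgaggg
Serpinh1: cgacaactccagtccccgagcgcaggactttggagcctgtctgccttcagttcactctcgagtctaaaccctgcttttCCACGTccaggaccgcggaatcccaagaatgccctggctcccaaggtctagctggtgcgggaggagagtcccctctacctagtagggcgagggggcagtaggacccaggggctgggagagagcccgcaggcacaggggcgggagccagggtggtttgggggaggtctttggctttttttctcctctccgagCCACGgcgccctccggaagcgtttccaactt
The P3h1 promoter held 3 CCACG matches and no ACGTG, the P4ha2 promoter 3 CCACG matches and 2 ACGTG matches, and the Serpinh1 promoter 2 CCACG matches and 1 ACGTG match. A second annotated start of P3h1, not shown, held 2 ACGTG and 2 CCACG matches in its window. Over the first start of the 8 genes, 7 promoters held CCACG, against 32.8% of 32851 promoters of the same length. The promoter without it was that of P4ha3. ACGTG was present in 5 of 8, against 19.6% of all promoters. The GC box GGGCGG was present in 8 of 8, against 35.7% of all, and the box CCAAT in 3 of 8, against 37.4%. The full endoplasmic reticulum stress element, in which CCAAT and CCACG stand a fixed distance apart, and the heat shock pair GAANNTTC were found in none of the 8, against 0.119% and 7.86% of all promoters, and TATAAA in 2 of 8, against 13.6%. The G and C content was 70.3% for P4ha2, 59.7% for P3h1 and 62.3% for Serpinh1, above the median of 52.7% over all promoters. These matches describe the letters and are not evidence of binding.

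Signals below are in multiples of the 75th percentile of the same array, and differences are log2 differences between such signals. The scanner software's error estimate gave each difference of these genes a technical error of 0.20 to 0.24, which does not cover variation between mice. Per spot the estimate was 0.144 to 0.145 log2 units for every gene but Tmem38b (0.161 to 0.169), whatever the signal. Bounds of 1 or 2 technical errors are therefore nearly fixed cut-offs, not a precision measured on repeated arrays. P3h1, the 3-hydroxylase itself, read 1.90 in Mkx-KO and 1.497 in WT at 10 weeks, and 4.30 in Mkx-KO and 3.46 in WT at 4 weeks. Both arrays of 4 weeks thus lay well above both of 10 weeks. Crtap, its partner without catalytic activity, read 16.6 in Mkx-KO and 16.3 in WT at 10 weeks, and 32.6 in Mkx-KO and 24.4 in WT at 4 weeks. Ppib read 46.2 in Mkx-KO and 47.0 in WT at 10 weeks, and 69.8 in Mkx-KO and 62.2 in WT at 4 weeks. In the 3 genes of this complex both arrays of 4 weeks were above both of 10 weeks, as in 45.6% of all genes. The Mkx-KO array of 4 weeks was the highest, as in 44% of all genes.

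Among the alpha subunits of prolyl 4-hydroxylase, P4ha1 read 1.04 in Mkx-KO and 0.747 in WT at 10 weeks, and 1.47 in Mkx-KO and 1.36 in WT at 4 weeks. P4ha2 read 9.08 in Mkx-KO and 6.67 in WT at 10 weeks, and 16.0 in Mkx-KO and 10.4 in WT at 4 weeks. P4ha3 read 0.649 in Mkx-KO and 0.706 in WT at 10 weeks, and 1.35 in Mkx-KO and 1.006 in WT at 4 weeks. The first 2 subunits were higher in Mkx-KO at both ages, while P4ha3 was higher in Mkx-KO at 4 weeks and slightly below WT at 10 weeks. P4hb, the common partner of the alpha subunits, read 17.7 in Mkx-KO and 16.6 in WT at 10 weeks, and 27.6 in Mkx-KO and 21.4 in WT at 4 weeks. Signals of different probes are not compared with each other, since probes differ in brightness.

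Serpinh1, the collagen-specific chaperone, read 94.4 in Mkx-KO and 78.6 in WT at 10 weeks, and 148 in Mkx-KO and 123 in WT at 4 weeks. Fkbp10 read 52.3 in Mkx-KO and 51.0 in WT at 10 weeks, and 101 in Mkx-KO and 70.8 in WT at 4 weeks. Both chaperones were above their 10-week signals on both arrays of 4 weeks, as were 45.6% of all genes. Tmem38b read 0.192 in Mkx-KO and 0.155 in WT at 10 weeks, and 0.156 in Mkx-KO and 0.170 in WT at 4 weeks. It spanned 0.31 log2 units over the arrays, the narrowest span of the set, and its ages overlapped.

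**Figure D1:**
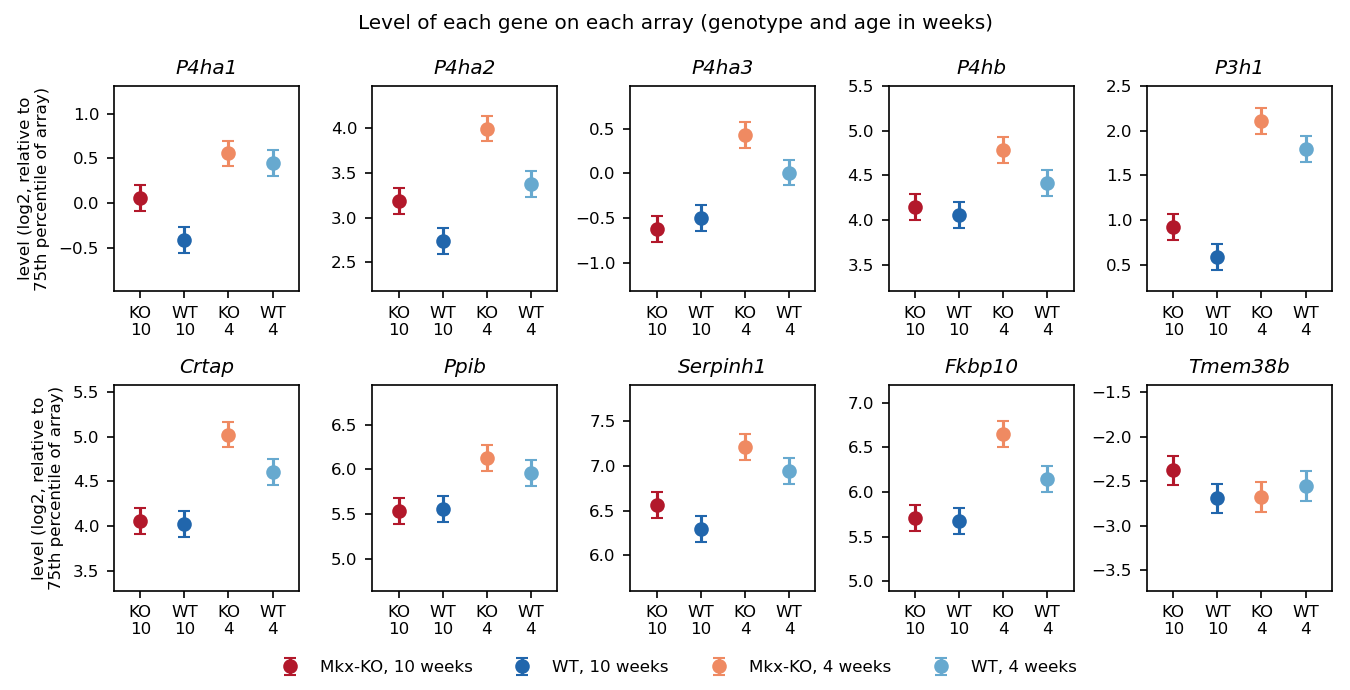
Each panel plots 1 gene's level (log2, with the array's 75th percentile set to 0) on the 4 arrays, Mkx-KO and WT at 10 weeks and then at 4 weeks, with the scanner software's error of the spot as bars; every panel spans the same number of log2 units. In 9 panels both arrays of 4 weeks lie above both of 10 weeks, against 45.6% of all genes, and in Tmem38b they do not. Under the scaling of the authors' deposited table this separation holds in 7 panels, against 15.6% of all genes.

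The arrays of 4 weeks were above those of 10 weeks in 9 of the 10 genes, against 45.6% of the 15504 genes that all 4 arrays measured above background. Under the deposited scaling it was 7 members, against 15.6% of these genes. No member had both Mkx-KO arrays above both WT arrays, against 6.04% of these genes. The array of highest level was Mkx-KO at 4 weeks in the same 9 genes, against 44% of all genes. From low to high, 7 of the 10 genes followed the order WT of 10 weeks, Mkx-KO of 10 weeks, WT of 4 weeks and Mkx-KO of 4 weeks, against 19.9% of all genes. Under the authors' deposited scaling 3 members followed that order, against 7.33% of all genes, and with normexp background correction 5 did, against 18.4%. Ppib and P4ha3 differed from that order in that Mkx-KO was below WT at 10 weeks. The span from lowest to highest array was 1.52 log2 units for P3h1, 1.26 for P4ha2, 1.05 for P4ha3 and 1.001 for Crtap. It was 0.73 for P4hb, 0.59 for Ppib and 0.31 for Tmem38b.

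At 10 weeks, setting Mkx-KO against WT asked which transcripts of the older tissue differ in the knockout. The alpha subunit genes P4ha1 and P4ha2 were the members farthest apart, higher in Mkx-KO by 0.48 and 0.45, that is 1.39-fold and 1.36-fold. P3h1 was higher by 0.34, Tmem38b by 0.31 and Serpinh1 by 0.27. P4hb (0.09), Fkbp10 (0.04), Crtap (0.03), Ppib (-0.02) and P4ha3 (-0.12) lay within 1 technical error of 0, and the sign of the last 4 changed under at least 1 setting. For Fkbp10 and Crtap it changed with the scaling or background correction, for P4ha3 with the mean over probes, and for Ppib with subtraction of the local median of neighbouring spots. No member was at least 2-fold apart, against 1.04% of 16457 measured genes higher and 1.37% lower (2.41% in either direction), and none was at least 1.5-fold apart, against 4.53% higher and 4.39% lower. The median of the members was 0.18, against 0.01 for all measured genes, whose differences had a standard deviation of 0.37. Of all genes, 6.68% were at least as high as P4ha1 and 7.47% at least as high as P4ha2.

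At 4 weeks the same comparison concerned the tissue of young mice. P4ha2 was the member farthest apart, higher in Mkx-KO by 0.62 or 1.53-fold, and 2.51% of all measured genes differed at least as far in that direction. Fkbp10 followed at 0.51, P4ha3 and Crtap at 0.42 each, P4hb at 0.37, P3h1 at 0.31 and Serpinh1 at 0.27. Ppib at 0.17, P4ha1 at 0.11 and Tmem38b at -0.12 lay within 1 technical error of 0. No member was at least 2-fold apart, against 0.472% of 15686 measured genes higher and 3.31% lower (3.78% in either direction). P4ha2 was the only one at least 1.5-fold higher, against 2.95% of all genes, and none was 1.5-fold lower, against 6.9%. P4ha2 missed that bound with quantile normalization (0.52) and with the local median of neighbouring spots subtracted (0.58). The dimmer probes of P3h1 (0.83) and P4ha3 (0.60) were past it too, and with normexp they gave 0.61 and 0.17. The median of the members was 0.34, against 0.06 for all measured genes, whose standard deviation was 0.51.

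**Figure D2:**
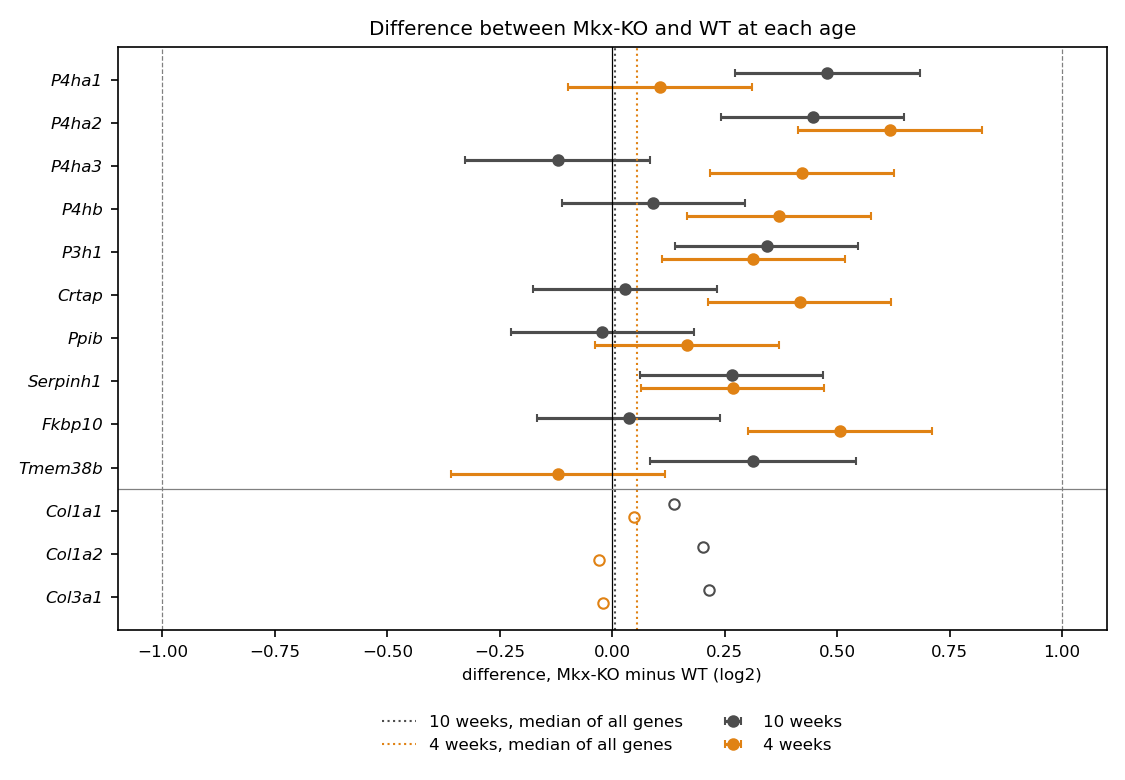
Points give the difference between Mkx-KO and WT (log2) at 10 weeks (grey) and 4 weeks (orange), with the technical error as bars, for the 10 genes and, as open points without bars, for Col1a1, Col1a2 and Col3a1; dotted lines mark the median of all measured genes and dashed lines a 2-fold difference. P4ha2 lies farthest right at 4 weeks, at 0.62, and no gene reaches a dashed line; Crtap, Ppib, Fkbp10 and P4ha3 at 10 weeks and Tmem38b at 4 weeks change sign under some settings, as do some open points.

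Over both ages, 7 of the 10 genes had a positive difference in either age group, against 29.1% of all genes, though for Crtap and Fkbp10 the sign at 10 weeks changed with the scaling. P3h1 by its brighter probe (0.34 and 0.31) and Serpinh1 (0.27 and 0.27) showed nearly the same difference at 10 and 4 weeks. The dimmer P3h1 probe did not, at 0.37 at 10 weeks and 0.83 at 4 weeks. The largest change in the genotype difference from one age to the other was in P4ha3, which was lower by 0.54 at 10 than at 4 weeks, with a technical error of 0.29. No member exceeded 2 technical errors in this respect. In the fit by limma of genotype and age over the 4 arrays, P4ha2 had a genotype coefficient of 0.53 with a standard error of 0.14. Its unadjusted p was 0.0336 and its adjusted p, by the Benjamini-Hochberg method over 16795 genes, was 1.0. No gene passed an adjusted p of 0.05 for genotype (0%), and 2.71% had an unadjusted p below 0.05, among the members P4ha2 alone. That fit treats the 2 ages as replicates and leaves 1 residual degree of freedom.

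The comparison of 10 with 4 weeks asked how the tissue differs between the growing and the older mouse. In WT the lowest member was P3h1, which at 10 weeks stood at 43.2% of its 4-week level, a difference of -1.21. P4ha1 stood at 54.8% (-0.87), Serpinh1 at 63.8% (-0.65), P4ha2 at 64.0% (-0.64) and Crtap at 66.7% (-0.58). P4ha3 differed by -0.51, Fkbp10 by -0.47, Ppib by -0.41, P4hb by -0.36 and Tmem38b by -0.13. P3h1 alone was at least 2-fold lower, against 3.83% of 16102 measured genes, and none was 2-fold higher, against 5.01% (8.84% in either direction). At 1.5-fold, 4 members were lower, against 12.8% of all genes, and none higher, against 10.5%. The median of the members was -0.55, against -0.10 for all measured genes, whose standard deviation was 0.64.

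In Mkx-KO the same genes were lower at 10 weeks, and the differences were wider for several. P3h1 stood at 44.1% of its 4-week level (-1.18) and P4ha3 at 48.2% (-1.05), the 2 members at least 2-fold lower, against 3.84% of 15669 measured genes, while none was 2-fold higher, against 6.25% (10.1% in either direction). Crtap at 51.0% (-0.97) and Fkbp10 at 52.0% (-0.94) were close to that bound. P4ha2 differed by -0.81, Serpinh1 by -0.65, P4hb by -0.64, Ppib by -0.59 and P4ha1 by -0.50. Tmem38b was the exception, at 0.30 with a technical error of 0.23. At 1.5-fold 8 members were lower, against 15.5% of all genes, and none higher, against 12%. The median of the members was -0.73, against -0.15 for all measured genes, with a standard deviation of 0.74. At least 1.5-fold lower in both genotypes were P3h1, P4ha2 and Serpinh1, 3 of 10 genes, against 6.55% of all. Under the deposited scaling 4 members were at least 1.5-fold lower in Mkx-KO (P4ha3, P3h1, Crtap and Fkbp10), against 5.6% of all genes, and P3h1 alone in WT, against 4.4%, so that P3h1 alone was lower in both genotypes, against 1.69%. With quantile normalization the counts were 4 in Mkx-KO, against 14.1%, 2 in WT, against 12%, and 1 in both, against 6.2%.

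The size of the age differences depended on how the arrays were scaled. Under the authors' deposited table, in which each array is multiplied by its own factor, the median of all genes moved up by 0.36 in WT and by 0.29 in Mkx-KO. The median of the members was then -0.19 in WT and -0.44 in Mkx-KO. In WT, P4hb came to -0.01 and Tmem38b to 0.22 on that scale. Measured against the median of all genes, the members' median was lower by 0.45 in WT and by 0.58 in Mkx-KO under either scaling. That equality follows from the factors, which shift all genes of an array alike, and is no check. With quantile normalization the gap was -0.34 in WT and -0.42 in Mkx-KO, and with normexp -0.36 in WT and -0.65 in Mkx-KO. In the limma fit, 9 members had an unadjusted p below 0.05 for age, against 24.3% of all genes, but none passed after adjustment (0% of all genes). Only 1 member had an unadjusted p that low under the deposited scaling, against 25.7% of all genes, and 6 did with quantile normalization, against 23.4%. The adjusted p of these 9 lay between 0.176 and 0.206, and that of Tmem38b was 0.779. The age coefficient was widest for P3h1, at -1.20 with a standard error of 0.13 (adjusted p 0.176).

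**Figure D3:**
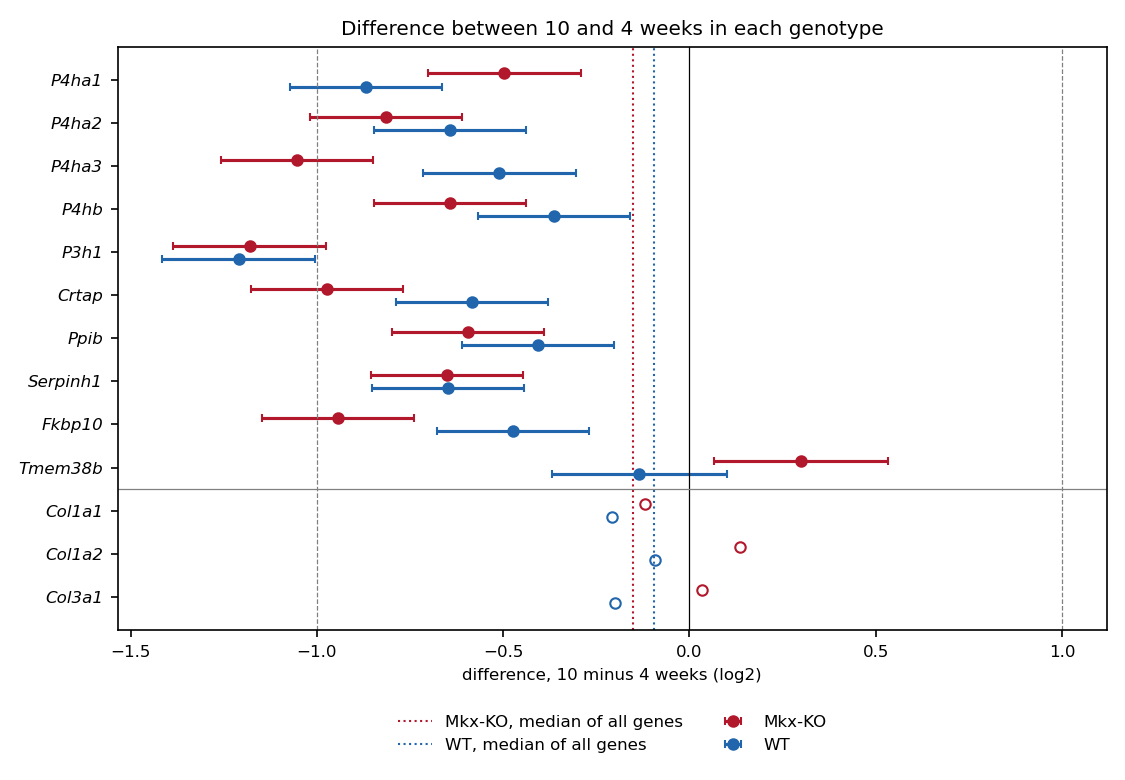
Points give the difference between 10 and 4 weeks (log2) in Mkx-KO (red) and WT (blue), with the technical error as bars, for the 10 genes and, as open points without bars, for Col1a1, Col1a2 and Col3a1; dotted lines mark the median of all measured genes and dashed lines a 2-fold difference. P3h1 lies past the lower dashed line in both genotypes and P4ha3 in Mkx-KO only; under the authors' deposited scaling all points move right by 0.29 in Mkx-KO and 0.36 in WT, and Tmem38b in WT and the open points below 0 change sign.

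The subunits of a complex did not all differ to the same degree. In the 3-hydroxylase complex in WT, P3h1 was lower at 10 weeks than Crtap by a further 0.63 and than Ppib by a further 0.80, with a technical error of 0.29 for each gap. In Mkx-KO the gap to Ppib was 0.59, while that to Crtap was 0.21, within 1 technical error. A second, dimmer P3h1 probe gave -1.52 in Mkx-KO and -1.06 in WT, beside -0.97 and -0.58 for Crtap. By that probe the gap to Crtap was not narrower in Mkx-KO. In prolyl 4-hydroxylase, the alpha subunits lay within 2 technical errors of P4hb in every comparison. The widest such gaps were P4ha1 against P4hb in WT between the ages (-0.50) and P4ha3 against P4hb in Mkx-KO between the ages (-0.41). The first held for the brighter P4ha1 probe only. The dimmer one gave -0.13 in WT, beside -0.36 for P4hb.

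P4ha1, P4ha3 and P3h1 had a second, dimmer probe. For P3h1 it gave 0.37 at 10 and 0.83 at 4 weeks for Mkx-KO minus WT, and -1.52 in Mkx-KO and -1.06 in WT for 10 minus 4 weeks. With the array's 75th percentile as scale, the age difference was past 2-fold with both probes in both genotypes. Normexp background correction brought the dimmer probe to -0.77 in WT, and under the deposited scaling the brighter one stood at -0.89 in Mkx-KO and -0.85 in WT, short of 2-fold. The dimmer P4ha1 probe gave only -0.27 in Mkx-KO and -0.13 in WT for age, and 0.26 and 0.40 for genotype at 10 and 4 weeks. The 2 P4ha1 probes therefore differed in size for age and in the order of the ages for genotype. The dimmer P4ha3 probe gave 0.19 and 0.60 for genotype at 10 and 4 weeks, and -0.83 in Mkx-KO and -0.43 in WT for age. The median of the neighbouring spots around the probes of all 10 genes lay between -0.09 and 0.12 log2 units of the mean over the arrays.

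The 3 main fibrillar chains that these proteins fold are set beside the members next. Col1a1 and Col1a2, which form type I collagen, differed by -0.12 and 0.14 in Mkx-KO and by -0.21 and -0.09 in WT between 10 and 4 weeks. Col3a1, the chain of type III collagen, differed by 0.03 in Mkx-KO and -0.20 in WT. The signs of these small differences changed with the scaling, apart from Col3a1 in Mkx-KO between the ages. The mean of the 3 chains differed by 0.02 in Mkx-KO and -0.17 in WT, against -0.15 and -0.10 for the median of all genes. Before scaling the chains were very bright and varied little. Col1a2 read 282559 in Mkx-KO and 292790 in WT at 10 weeks, and 284185 in Mkx-KO and 269688 in WT at 4 weeks. Whether such bright probes still respond in proportion to the transcript was not tested, so level chains do not establish level collagen transcripts. Set against that mean, 9 members were lower at 10 weeks by more than 2 technical errors in Mkx-KO. In WT, 4 were (P4ha1 by its brighter probe, P3h1 and, by a narrow margin, P4ha2 and Serpinh1), and P3h1 was lower than the chains by 1.04. The dimmer P4ha1 probe gave -0.27 in Mkx-KO and, at -0.13 in WT, did not lie below the chains there. The share of all genes past such a bound was not computed, here or between the genotypes, so these counts cannot be compared with other genes. Between the genotypes at 4 weeks, P4ha2 exceeded the chains by 0.62 and Fkbp10 by 0.51, the 2 members past 2 technical errors. At 10 weeks no member did so, and the members' median was level with the chains (-0.01).

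Other genes of the pathway, from lists chosen by function, gave the following counts. Of 12 other genes of collagen hydroxylation and folding, 9 in Mkx-KO and 4 in WT were at least 1.5-fold lower at 10 than at 4 weeks, against 15.5% and 12.8% of all genes, and none was 1.5-fold higher. Their medians were -0.85 in Mkx-KO and -0.42 in WT, and -0.56 in Mkx-KO and -0.06 in WT under the deposited scaling. Fkbp11, an isomerase of the same family as Fkbp10, differed by -1.37 in Mkx-KO and -0.95 in WT. Plod2 and Plod3, which encode lysyl hydroxylases, differed by -0.84 and -0.89 in Mkx-KO and by -0.80 and -0.64 in WT. Fkbp7 differed by -0.87 in Mkx-KO and -0.93 in WT. Between the genotypes the list had medians of 0.14 at 10 weeks and 0.36 at 4 weeks, with 12 of 12 genes positive at 4 weeks, against 58.8% of all genes. At that age Fkbp11 (0.72) and Plod3 (0.61) were at least 1.5-fold higher, 2 of 12, against 2.95% of all genes.

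Genes of procollagen export showed 6 of 12 at least 1.5-fold lower at 10 weeks in Mkx-KO and 5 in WT, against the same shares of all genes (15.5% and 12.8%). Their medians were -0.65 in Mkx-KO and -0.45 in WT, and -0.36 in Mkx-KO and -0.10 in WT under the deposited scaling. Kdelr3, a receptor that returns escaped proteins to the endoplasmic reticulum, differed by -1.46 in Mkx-KO and -1.18 in WT. Creb3l1, a stress-activated transcription factor known to drive type I collagen genes in bone, differed by -1.59 in Mkx-KO and -0.91 in WT. The vesicle coat genes Sec23a and Sec24d differed by -1.002 and -0.92 in Mkx-KO and by -0.65 and -0.69 in WT. For Mkx-KO minus WT the list had medians of 0.13 at 10 weeks and 0.34 at 4 weeks, where Creb3l1 (0.84), Kdelr3 (0.63) and Creb3l2 (0.62) were at least 1.5-fold higher, against 2.95% of all genes. Creb3l2 is named after its value was seen.

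Of 17 general folding genes of the endoplasmic reticulum, 10 in Mkx-KO and none in WT were at least 1.5-fold lower at 10 weeks, against 15.5% and 12.8% of all genes, with medians of -0.61 in Mkx-KO and -0.21 in WT. The median in WT became 0.14 under the deposited scaling. Manf, a secreted stress-induced protein, differed by -1.18 in Mkx-KO and -0.38 in WT, and the disulfide isomerase gene Pdia4 by -0.92 in Mkx-KO and -0.14 in WT, a WT sign that changed with the scaling. For Mkx-KO minus WT the median was 0.02 at 10 weeks, with a sign that changed with the scaling, and 0.40 at 4 weeks, where 16 of 17 genes were positive, against 58.8% of all genes. Manf (0.78), Pdia4 (0.68) and Calr (0.52), the gene of the calcium-binding chaperone calreticulin, were among them. Of the wider list of 10 collagen chains, 3 in each genotype were at least 1.5-fold lower at 10 weeks, against 15.5% of all genes in Mkx-KO and 12.8% in WT. Col6a1, Col5a1 and Col14a1 differed by -1.37, -1.25 and -1.18 in Mkx-KO and by -0.62, -0.56 and -1.08 in WT, so Col5a1 was just short of 1.5-fold there, and the cartilage-type chain Col11a1 (-0.72) was the third in WT. At 4 weeks Mkx-KO exceeded WT by at least 1.5-fold in Col5a1 (0.79) and Col6a1 (0.69), against 2.95% of all genes. The list medians were 0.18 at 10 weeks and 0.13 at 4 weeks for Mkx-KO minus WT, and -0.30 in Mkx-KO and -0.37 in WT for age.

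**Figure D4:**
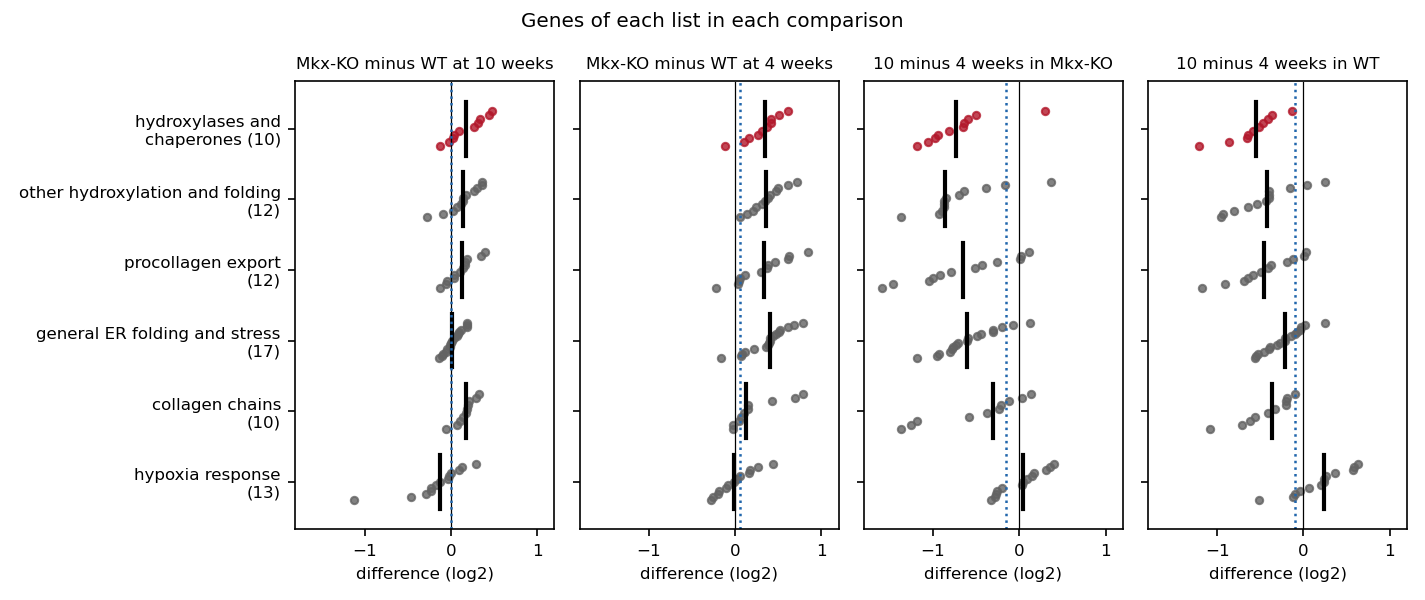
Each point is 1 gene's difference (log2) in the comparison named above the panel, for the 10 hydroxylase and chaperone genes (red) and the other lists (grey, number of genes in brackets); black bars are medians and the dotted line is the median of all measured genes. At 4 weeks the medians of the first 4 rows lie between 0.34 and 0.40 for Mkx-KO minus WT, and between the ages in Mkx-KO they lie between -0.85 and -0.61; in WT the median of general folding genes between the ages is -0.21 and changes sign under the deposited scaling.

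Markers of other cell types moved with several of these differences, and their part in the results was not tested. At 4 weeks 4 of 5 measured olfactory and nasal gland genes were at least 2-fold lower in Mkx-KO, against 3.31% of all genes. The defining genes Cnga2 and Bpifb9b were not well above background there. Skeletal muscle markers were at least 2-fold lower there in 6 of 6 genes (Tcap -1.95, Ckm -1.69), against the same 3.31%. Their summed signal was 15.0 in Mkx-KO and 42.7 in WT at 4 weeks, and 79.5 in Mkx-KO and 62.7 in WT at 10 weeks. Between the ages in Mkx-KO all 6 muscle genes were at least 2-fold higher at 10 weeks, against 6.25% of all genes, with a median of 2.45, and in WT 1 was, against 5.01%, with a median of 0.28. Salivary gland markers summed to 0.411 in Mkx-KO and 3.21 in WT, with Bpifa2, Dcpp2 and Smr3a not well above background in Mkx-KO. Stratified epithelium summed to 347 in Mkx-KO and 208 in WT at 4 weeks, and to 277 in Mkx-KO and 482 in WT at 10 weeks. Blood and marrow markers summed to 696 in Mkx-KO and 945 in WT at 4 weeks, and to 739 in Mkx-KO and 463 in WT at 10 weeks.

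Osteoblasts also make large amounts of collagen. Their 6 markers were well above background on every array and summed to 263 in Mkx-KO and 168 in WT at 10 weeks, and to 325 in Mkx-KO and 452 in WT at 4 weeks. Ibsp, the bone sialoprotein gene, differed by 1.58 at 10 and -1.13 at 4 weeks between the genotypes, and by 0.45 in Mkx-KO and -2.26 in WT between the ages. Phex differed by -0.79 in Mkx-KO and -1.35 in WT between the ages. Of the 6 osteoblast genes, 4 in each genotype were at least 1.5-fold lower at 10 weeks, against 15.5% of all genes in Mkx-KO and 12.8% in WT. Tooth-forming cell markers summed to 10.9 in Mkx-KO and 12.5 in WT at 10 weeks, and to 14.7 in Mkx-KO and 47.9 in WT at 4 weeks, with Dspp at -3.01 in Mkx-KO and -3.84 in WT between the ages. Amelx, the gene of the enamel protein amelogenin, went the other way in the knockout, at 4.71 in Mkx-KO and -1.63 in WT between the ages, and at -6.66 for Mkx-KO minus WT at 4 weeks. Enam, of the same list, was not well above background in Mkx-KO at 4 weeks.

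Among the ligament markers, Scx and Tnmd, which encode a transcription factor and a membrane protein of tendon cells, differed by -0.81 and -0.90 in Mkx-KO and by -1.22 and -0.81 in WT between the ages. The list of 6 had a median of -0.39 in Mkx-KO and -0.19 in WT for age, a WT sign that changed with the scaling, and of 0.11 at 10 weeks and 0.17 at 4 weeks for Mkx-KO minus WT. Chondrocyte markers summed to between 2.92 and 4.38 on the arrays. Of these 5 genes, 4 were well above background in WT at 4 weeks and 3 on each other array, Acan and Hapln1 among them every time. Matn1, a defining cartilage gene, was not well above background on any. Adipocyte markers summed to 2.21 in Mkx-KO and 1.29 in WT at 10 weeks, and to 0.367 in Mkx-KO and 0.661 in WT at 4 weeks.

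**Figure D5:**
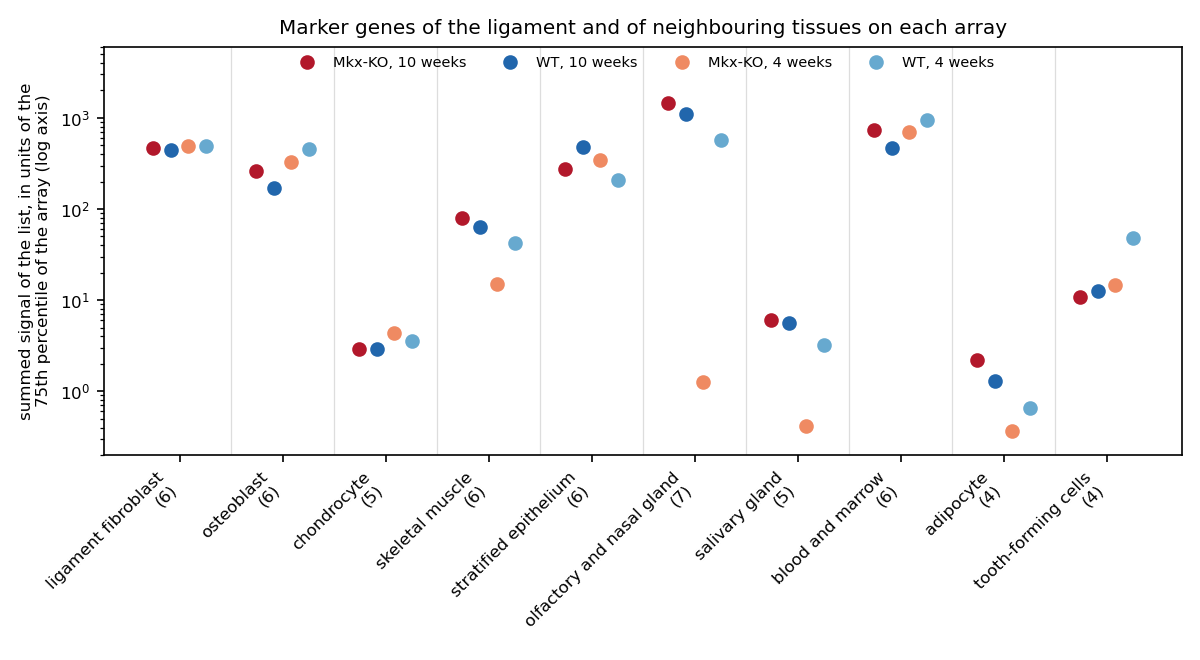
Points give the summed signal of each marker list, in multiples of the array's 75th percentile on a log axis, for the 4 arrays in the order Mkx-KO and WT at 10 weeks, then Mkx-KO and WT at 4 weeks; the number of genes is in brackets. The ligament list lies between 442 and 488 on all arrays, whereas the olfactory and nasal gland list stands at 1.27 in Mkx-KO at 4 weeks. The brightest genes of a list weigh most in its sum, so a level sum does not mean that each gene was level.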

How the data were processed

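RNA was labelled with Cy3 from total RNA per the labels' protocols and read on 4 one-colour arrays with Agilent Feature Extraction 11.5.1.1, per the file headers and the submitters' processing notes. The deposited scan data give spot intensity on a linear scale: the processed signal, background-subtracted and detrended by that software, with its error estimate, and median signals of spot and background. The authors' deposited series table holds the same processed intensity times 1 factor per array (2.08 for Mkx-KO and 1.81 for WT at 10 weeks, 1.54 for Mkx-KO and 1.64 for WT at 4 weeks), not centred per gene. Its column medians are 87.0, 87.0, 56.8 and 62.2 in that order. How the factors were chosen is not given in the sources used here.

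RefSeq accessions of the array design (annotated on mm9) were looked up in a RefSeq gene table of GRCm38.p6 to name probes. Of 56605 probes 32994 (58.3%) matched, and all 10 genes did, P3h1 under its accession. Outlier spots (60 to 77 per array) were left out, log2 signals had the array's 75th percentile subtracted, and spots of a probe were averaged. A gene was measured in a comparison when well above background on both arrays, and called at a 2-fold difference, with 1.5-fold as a second bound. With 1 array per group there is no test for a pair, and the number of arrays limits the precision. An additive model of genotype and age was fitted with limma 3.58.1 (R 4.3.3) to the 16795 genes that passed the background call on 2 or more arrays, after the code was tested on simulated data. Tables were built with pandas 2.3.3 and numpy 2.4.6 under Python 3.11.15, and plots with matplotlib 3.10.9.

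The members and lists were chosen with earlier results of these data known. Named were all members, Mkx, Col1a1, Col1a2, Col3a1 and, by mean size of difference, up to 4 genes of each pathway list and 2 of each marker list. Alternatives were normexp (on median signals, since mean spot signals were not used here), quantile normalization, median centring, the deposited table, the mean over probes, subtraction of the local median, other filters, thresholds and limma settings.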

Additional observations from a re-analysis of the deposited data

How the results depend on the processing

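The members' median kept its sign in all 4 comparisons under every scaling, probe and filter setting, and of 240 values of single members under these settings 231 kept their sign. The age comparisons moved. With the deposited table the median was -0.44 in Mkx-KO and -0.19 in WT, and with quantile normalization -0.51 in Mkx-KO. The count at least 2-fold apart in Mkx-KO between the ages, 2 in the report, was 1 with normexp or with the mean over probes and 0 with the deposited table, which also took it to 0 in WT, from 1. Median centring made it 3 in Mkx-KO, with Crtap at -1.005. With a bound of 1.5-fold the counts were 8 in Mkx-KO and 4 in WT for age, and 1 for genotype at 4 weeks. The deposited factors shift all genes alike. For the other settings the cause was not tested. The counts at the 1.5-fold bound under each scaling were added after seeing the data. limma called no member under any of its settings; for age, normexp called 31 of all genes and the other settings none. No paired analysis was possible because each group has 1 array and no shared replicate numbers, and no array could be left out of the fit, which has 1 residual degree of freedom. Tmem38b and the dimmer probes lay nearest to background, where signal limits precision most.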

Other observations

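Genes induced by low oxygen, as P4ha1 and P4ha2 are known to be, gave the following values. Of 13 genes, none was at least 1.5-fold lower at 10 than at 4 weeks in either genotype, against 15.5% of all genes in Mkx-KO and 12.8% in WT, and the medians were 0.04 in Mkx-KO and 0.23 in WT. Slc2a1, a glucose transporter gene, differed by -0.27 in Mkx-KO, with a sign that changed with the scaling, and by 0.63 in WT. Car9, a carbonic anhydrase gene, differed by -0.25 in Mkx-KO, a sign that also changed, and by -0.51 in WT. Ero1a, an oxidase that works with disulfide isomerases, differed by 0.35 in Mkx-KO and 0.57 in WT. Between the genotypes the medians were -0.13 at 10 weeks and -0.01 at 4 weeks, and both signs changed with the setting. Egln3, which encodes an oxygen-sensing prolyl hydroxylase, differed by -1.12 at 10 weeks and -0.26 at 4 weeks. It was the 1 gene of the list at least 2-fold lower in Mkx-KO at 10 weeks, against 1.37% of all genes. Over the settings its difference at 10 weeks ranged from -1.18 to -0.67, so it did not stay past 2-fold under all.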
